A study of Danio rerio with 4 samples.

Results

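The genes described here are the zebrafish genes of bone morphogenetic protein (BMP) and transforming growth factor-β (TGF-β) signalling. They were chosen by symbol: BMPs, BMP receptors, bmper, TGF-βs and their receptors, Smads, activin receptors (acvr genes), acvrl1, eng and the Id genes, with at least 20 unique molecular identifiers (UMIs) over the series. Of 36351 genes, 56 symbols matched and 55 genes passed, from tgfb2l with 63 UMIs upwards, whereas bmp10l had 0 UMIs. No symbol eng and no symbol smad4b was matched, and ACVR1C, written in capitals and with 21 UMIs, was not taken in. By role there were 17 ligands, 10 type I receptors, 8 type II receptors, 2 extracellular modulators (tgfbr3 and bmper), 6 receptor Smads, Smad4 (smad4a), 3 inhibitory Smads and 5 Id genes. The other 3 genes share only the symbol: bmp1a and bmp1b code for proteases of the tolloid family, and bmp2k codes for a kinase.

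BMP and TGF-β ligands bind pairs of type I and type II serine/threonine kinase receptors, which phosphorylate receptor Smads. BMP receptors act mainly through smad1, smad5 and smad9, and TGF-β and activin receptors through smad2 and smad3, and both kinds of Smad enter the nucleus with Smad4. Smad6 and Smad7 feed back to inhibit the pathway, and Id genes, which code for inhibitors of helix-loop-helix transcription factors, are direct BMP targets. In endothelium, acvrl1 and bmpr2 control vessel calibre and identity, and BMP signalling beneath the dorsal aorta is known in zebrafish to be needed for the haemogenic programme.

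Cells were GFP-positive cells sorted from dissected trunks of 26 hpf Tg(kdrl:GFP) zn1 embryos, a line whose GFP is under the control of the kdrl promoter, active in endothelium. WT (wild type) embryos were compared with embryos without the microRNA miR-128 (miR-128 mutant) and with embryos called csnk1a1 g3UTR or jag1b g3UTR. In this pair, the miR-128 binding site in the 3′UTR of csnk1a1 or jag1b was mutated with guide RNA and Cas9 mRNA injected into embryos. The cells of an injected embryo can carry different edits. Whether the sequenced embryos were injected or were offspring of injected fish was not stated in the sources used here. Each group was 1 droplet library. There was therefore no replicate within a group, and a difference between libraries carries no p-value. WT and the miR-128 mutant were processed with another version of Cell Ranger than both g3UTR libraries, so that for the g3UTR libraries, genotype, preparation and software version cannot be told apart in a comparison with WT.

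Cells were assigned to cell types by markers that are not among the 55 genes. This gave 33699 endothelial cells (ECs) in all: 20623 venous, 5380 tip, 2301 arterial, 473 haemogenic and 4922 other endothelial cells. It also gave 1844 nascent haematopoietic stem and progenitor cells (nHSPCs), small blood classes and non-endothelial classes such as mesenchyme with 681 cells. The haemogenic class held 89 to 156 cells per library. Levels are in CPM, the usual unit of counts scaled to depth: the UMIs of a gene in all cells of a class were added up and divided by that class's total. The 3′ UMIs were not corrected for gene length, so levels are compared within a gene. The median depth fell from 10489.5 UMIs per kept cell in WT to 5711 in jag1b g3UTR, while kept cells numbered 9090 to 12270 per library. In ECs, kdrl itself had 1880, 2203, 4936 and 5967 CPM in WT, in the miR-128 mutant and then in csnk1a1 g3UTR and jag1b g3UTR, so the g3UTR pair stood apart from the other pair in a defining endothelial marker. Values in 4 libraries are given in this order throughout. The edited genes had 350, 368, 365 and 367 CPM (csnk1a1) and 6.81, 9.04, 5.90 and 6.45 CPM (jag1b) in ECs, and an edit in a 3′UTR can itself alter 3′ counting, so these levels do not check the labels. miR-128 was not measured. Barcodes shared between a pair of libraries were 24 to 51.

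Ligands, receptors and Smads were spread unevenly over the sorted cells. Of the 55 genes, 17 had their highest mean level in an endothelial class, 2 in a blood class and 36 in a non-endothelial class. Notochord and mesenchyme were the highest for 11 genes each. The same count was not made over all genes, and cell types differ much in size, with 172 notochord cells in all. These counts are therefore not read as a trait of the 55 genes. In ECs, the ligands with most UMIs were tgfb1a and bmp6. tgfb1a, the TGF-β ligand of vessels and blood, had 83.4, 84.1, 75.4 and 94.4 CPM. bmp6 had 25.9, 17.0, 32.9 and 25.8 CPM, with the miR-128 mutant lowest. Among type I receptors, acvrl1, the receptor for circulating BMPs in endothelium, had 40.8, 40.2, 42.0 and 45.0 CPM, and acvr1l, a BMP type I receptor, had 37.7, 33.8, 40.8 and 44.0 CPM. Among type II receptors, tgfbr2b, which binds TGF-β, had 154, 158, 147 and 171 CPM. bmpr2a, a BMP type II receptor, had 79.5, 85.4, 112 and 125 CPM, higher in both g3UTR libraries than in the other pair. The co-receptor tgfbr3 (betaglycan) had 4.57, 6.76, 5.92 and 9.19 CPM, while bmper, a secreted BMP-binding protein, stood at 0.117 to 0.206 CPM.

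Among the intracellular members, the BMP Smad smad5 had 136, 136, 154 and 167 CPM in ECs and the TGF-β Smad smad3a had 68.9, 69.1, 79.3 and 113 CPM. The shared partner smad4a, the only Smad4 gene matched, was sparsely counted, with 1.24, 1.42, 2.38 and 2.65 CPM. The inhibitory Smad smad7 had 40.7, 46.9, 56.8 and 42.7 CPM, and smad6a had 28.2, 32.7, 33.6 and 21.2 CPM. Of the Id genes, id1 had 334, 417, 256 and 190 CPM, so that the 4 libraries lay further apart than for smad5 or acvrl1. id3 had 33.4, 44.1, 31.6 and 25.0 CPM, so that the libraries ranked as they did for id1.

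**Figure D1:**
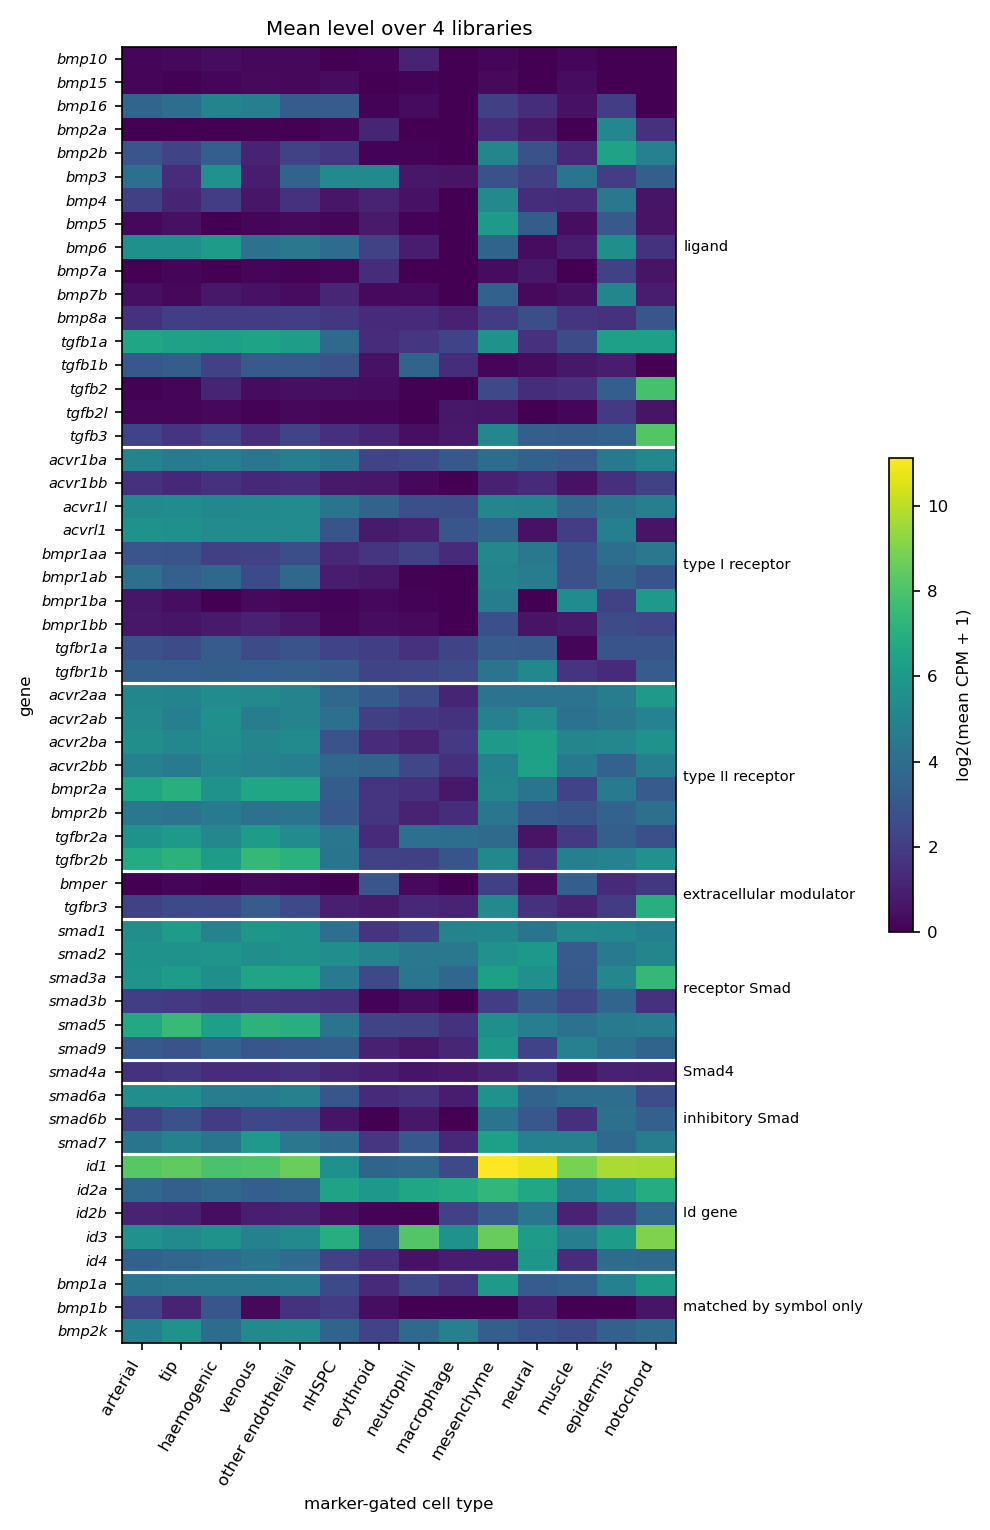
Mean level of each of the 55 genes over the 4 libraries, as log2(mean CPM + 1), by marker-gated cell type (columns), with genes grouped by role (rows). id1 is brightest in mesenchyme, with a mean of 2259 CPM, tgfb2 and tgfb3 stand out in notochord, and most type II receptors are darker in nHSPCs than in endothelial classes.

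Several ligands had far higher levels in a non-endothelial class than in ECs as a whole. By number of UMIs, ECs still held 744 of 1631 for bmp2b and 681 of 1788 for tgfb3. They held 120 of 413 for bmp7b, 73 of 632 for tgfb2 and 68 of 682 for bmp5. bmp5, a ligand of the skeleton in mouse, had 51.9, 69.4, 71.8 and 54.5 CPM in mesenchyme and 0.0722 to 0.327 CPM in ECs. tgfb2 and tgfb3, TGF-β ligands of matrix-rich tissues, had means of 237 ± 46.5 CPM and 289 ± 88.3 CPM (SD over the 4 libraries, n = 4) in notochord, against 0.167 to 0.488 CPM and 1.99 to 2.49 CPM in ECs. bmp2b, which patterns the ventral side of the early embryo, and bmp7b were highest in epidermis, with 83.4 ± 17.1 and 34.1 ± 9.54 CPM (SD, n = 4). As a measure of free RNA, the globin hbbe3 had 41.1 to 161 CPM in ECs and 67267 to 79069 CPM in erythroid cells, and the part of free RNA in such low endothelial values was not tested. The ligands with under 1 CPM in the ECs of every library were bmp10, bmp15, bmp2a, bmp5, bmp7a, bmp7b, tgfb2 and tgfb2l.

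The arterial and venous cells of one library share genotype and preparation, so cell types were compared within libraries. The test was edgeR's quasi-likelihood test on the summed UMIs with library as a block. A gene was called at a Benjamini-Hochberg adjusted p of at most 0.05, over 20903 genes, and a change of at least 2-fold. The 4 libraries served as the replicates. Of the 55 genes, 54 had the 50 UMIs over all class sums needed to be tested, tgfb2l being the exception. All cell types with at least 10 cells in each library shared the same fit. The spread behind a p-value was thus pooled over these cell types, not taken from the compared ones alone. With only the compared classes fitted, adjusted p moved either way. For bmp3 it went from 3.59e-14 to 0.000185 (arterial against venous) and from 0.000886 to 2.48e-07 (haemogenic against arterial). Since the libraries differ in genotype, p-values speak only for these 4 libraries.

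In arterial cells, 5 ligands, both bmpr1a receptor genes and smad6a were higher than in venous cells, while smad7, tgfbr3 and bmp16 were lower. In all, 9 of 54 genes (16.7%) rose in arterial cells against a background of 7.33% of all genes, and 3 of 54 (5.56%) fell against 6.68%. The median log2 difference was 0.20 for the 54 genes and 0.10 for all genes. The largest rise was in bmp3, which in mammals opposes other BMPs, with 21.9, 22.6, 14.3 and 3.86 CPM in arterial cells and 1.19, 0.664, 0.542 and 0.957 CPM in venous cells. The groups did not overlap, and the arterial value of jag1b g3UTR was the lowest of the 4. The log2 difference was 4.30 ± 0.34 (SE), adjusted p = 3.59e-14. bmp2b had 6.81, 14.3, 3.81 and 1.71 CPM in arterial cells against 0.835, 1.65, 0.813 and 1.15 CPM in venous cells, a log2 difference of 2.76 ± 0.25 (adjusted p = 1.85e-14). The highest venous library came close to the lowest arterial one. bmp4, needed in mouse for mesoderm and blood formation, rose by 2.57 ± 0.37 on the log2 scale, bmp6 by 1.57 ± 0.12 and tgfb3 by 1.30 ± 0.25. The protease gene bmp1b had 3.70, 5.49, 2.22 and 3.43 CPM in arterial and 0.134, 0.407, 0.0903 and 0.160 CPM in venous cells, a log2 difference of 4.22 ± 0.40.

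On the receiving side, bmpr1ab, a BMP type I receptor, had 15.1, 13.7, 14.6 and 22.3 CPM in arterial cells and 2.43, 3.1, 4.88 and 8.11 CPM in venous cells. The arterial values lay above all venous values, with a log2 difference of 2.01 ± 0.18 (adjusted p = 2.80e-15). Its duplicate bmpr1aa rose by 1.07 ± 0.21. None of the 8 type II receptors reached 2-fold, although acvr2ab, acvr2ba and bmpr2b passed the adjusted p with arterial levels higher and tgfbr2a and tgfbr2b with arterial levels lower.

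The inhibitory Smads smad6a and smad7 lay on opposite sides. smad6a, the feedback inhibitor of BMP receptors, had 47.6, 47.3, 43.8 and 35.6 CPM in arterial cells and 20.6, 25.5, 29.9 and 17.2 CPM in venous cells, a log2 difference of 1.0 ± 0.11 (adjusted p = 5.40e-11). smad7, which inhibits both branches, had 14.8, 14.3, 26.0 and 22.3 CPM in arterial cells and 53.4, 64.6, 74.6 and 54.0 CPM in venous cells. It fell by 1.67 on the log2 scale (SE 0.16, adjusted p = 3.03e-12), and the groups did not overlap for either gene. tgfbr3 had 2.52, 3.59, 1.91 and 5.57 CPM against 5.49, 8.67, 7.74 and 10.3 CPM and fell by 1.16 (SE 0.26), although the highest arterial value lay above the lowest venous one. The ligand gene bmp16 had 13.0, 14.3, 11.8 and 6.43 CPM against 24.6, 35.0, 27.3 and 21.6 CPM and fell by 1.11 (SE 0.18). Both fell short of 2-fold when 1 library was left out, tgfbr3 at -0.94 without csnk1a1 g3UTR and bmp16 at -0.97 without jag1b g3UTR. Of the receptor Smads, smad3a, smad5 and smad1 were lower and smad2 higher in arterial cells at the adjusted p, all by less than 2-fold. No Id gene was called, with id3 the nearest to the fold limit at 0.86 ± 0.17 and id4 at -0.78 ± 0.18.

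**Figure D2:**
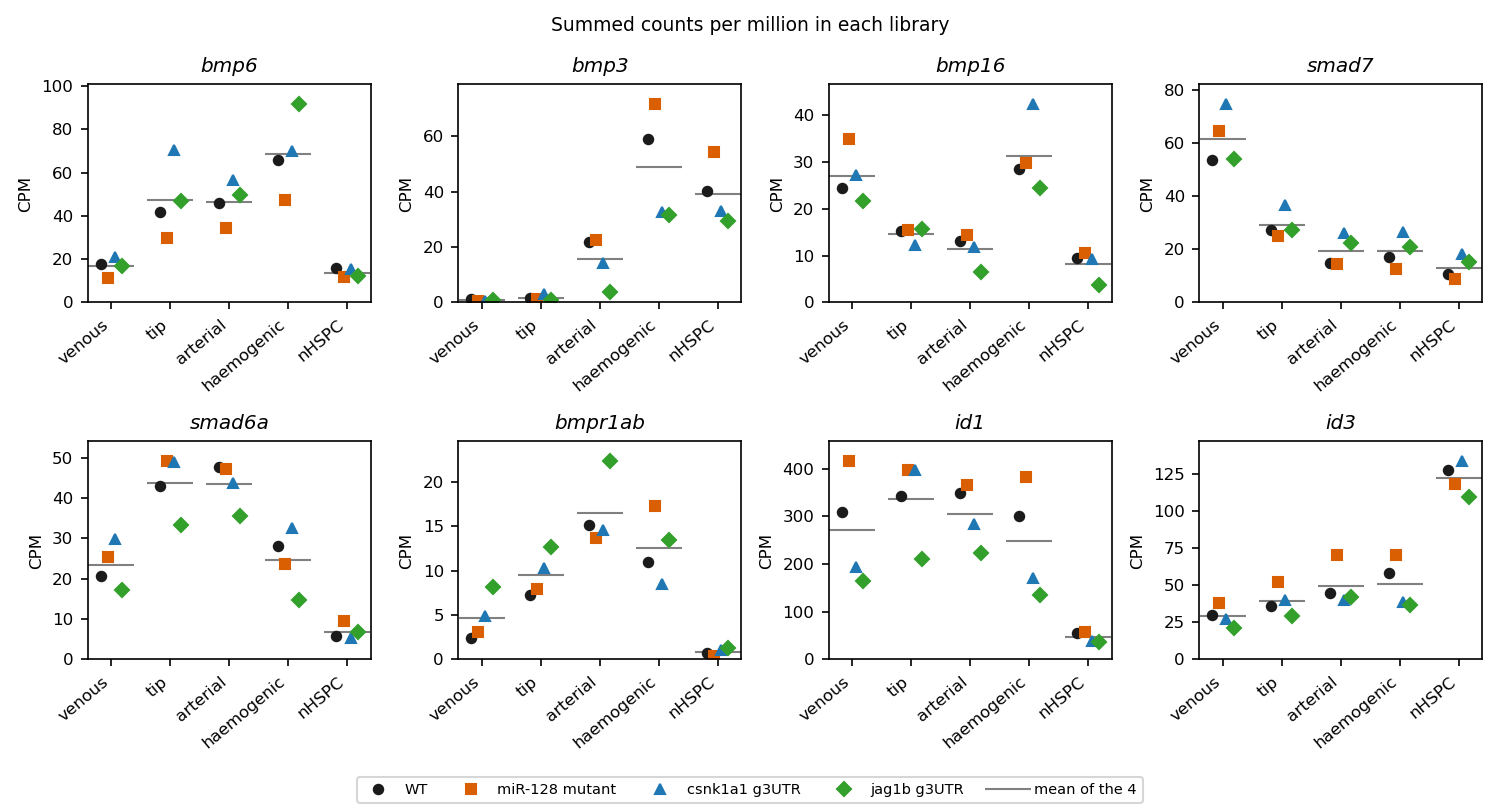
Level in CPM (vertical axes, from 0) of 8 genes in venous, tip, arterial and haemogenic endothelial cells and in nHSPCs, with 1 point per library and a grey line at the mean of the 4. bmp3 is near 0 in venous and tip cells and has a mean of 48.8 CPM in haemogenic cells, smad7 is highest in venous cells, and id1 falls and id3 rises in nHSPCs.

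Tip cells lead sprouting vessels. Against arterial cells, 3 of 54 genes (5.56%) were lower in tip cells, beside 2.58% of all genes, and 0 were higher by the edgeR test, beside 2.13% of all genes. At an unadjusted p under 0.05, 6 genes were higher, none of them by 2-fold, and DESeq2 also called 0. The median log2 difference was -0.12 for the 54 genes and -0.02 for all genes. The genes that fell were bmp3, bmp1b and bmp4. All 3 were also called higher in arterial than in venous cells. The tip gate asks for tip markers in endothelial cells and does not ask for arterial markers. The part of non-arterial cells in these falls was not tested. bmp3 had 1.5, 1.24, 3.05 and 0.765 CPM in tip cells and fell by 3.46 (SE 0.36, adjusted p = 1.20e-09), with each tip value below the arterial value of its own library. bmp1b had 0.932, 1.63, 0.814 and 0.983 CPM and fell by 1.84 (SE 0.37), and bmp4 had 0.689, 1.17, 0.712 and 2.29 CPM and fell by 1.60 (SE 0.38, adjusted p = 0.00116). Without the WT library, bmp4 was at -1.36 and missed the threshold (adjusted p = 0.0772), and without csnk1a1 g3UTR 5 genes were called lower. The BMP Smads smad5 and smad1 passed the adjusted p at less than 2-fold, with smad5 at 161, 168, 187 and 214 CPM in tip cells against 86.3, 81.7, 119 and 128 CPM in arterial cells.

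Haemogenic cells differed from arterial cells in 2 ligands. Of 54 genes, 2 (3.70%) were higher, beside 1.35% of all genes, and 0 were lower, beside 1.01% of all genes. At an unadjusted p under 0.05, 11 genes were lower, none by 2-fold, and DESeq2 called 0 as lower. The median log2 difference was -0.02 for the 54 genes and 0.03 for all genes. bmp3 had 59.2, 71.6, 32.7 and 31.7 CPM in haemogenic cells, each above the arterial value of its library, and rose by 1.56 ± 0.32 (adjusted p = 0.000886). bmp16 had 28.6, 29.9, 42.4 and 24.4 CPM in haemogenic cells, with no overlap with the arterial values, and rose by 1.34 ± 0.23 (adjusted p = 4.47e-05). Its haemogenic values did overlap with the venous values given above. The haemogenic gate asks for UMIs of runx1, gata2b or gfi1aa in endothelial cells and does not ask for arterial markers. The part of non-arterial cells in this rise was not tested. bmp6 had 66.0, 47.2, 70.2 and 91.6 CPM and passed the adjusted p at less than 2-fold (0.50 ± 0.16, adjusted p = 0.0436). Among the receptors and Smads that passed the adjusted p below the fold limit, the kinase gene bmp2k apart, bmpr2a (46.2, 40.9, 65.3 and 54.9 CPM), tgfbr2a, tgfbr2b, smad5 and smad6a were lower in haemogenic cells, by 0.47 to 0.89 on the log2 scale. The class is small, and gates set on more markers or at a fixed depth called 4 and 7 genes as lower. The shares of all genes called lower under these gates were not counted. Of the 89 to 156 haemogenic cells per library, these gates kept 40 to 79 and 32 to 43 in the class. With both g3UTR libraries alone, a setting chosen after seeing the data, bmp3 was at 1.75 and missed the threshold (adjusted p = 0.113).

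Most type II receptors, acvrl1 and id1 were lower in nHSPCs than in haemogenic cells, while id2a and id3 were higher. Of 54 genes, 23 (42.6%) fell, beside 13.2% of all genes, and 2 (3.70%) rose, beside 10.5%. The median log2 difference was -1.02 for the 54 genes and -0.01 for all genes. The genes that fell included 7 of 8 type II receptors, 3 of 10 type I receptors, 5 of the 16 ligands tested, 2 of 3 inhibitory Smads, 1 of 6 receptor Smads, 2 of 5 Id genes, tgfbr3, bmp1a and bmp1b. The nHSPC gate asks for a myb UMI and for 2 of 5 blood progenitor markers, and it sets no limit on endothelial markers. The endothelial gene tie1 stood at 45.3 to 72.7 CPM in nHSPCs beside 302 to 437 CPM in haemogenic cells. The part of this difference in the result was not tested.

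The largest fall was in bmpr1ab, with 10.9, 17.3, 8.47 and 13.4 CPM in haemogenic cells and 0.715, 0.392, 1.11 and 1.23 CPM in nHSPCs, by 3.85 on the log2 scale (SE 0.38, adjusted p = 1.55e-13). acvr2ba, a type II receptor of activins and BMPs, had 39.0, 29.9, 44.8 and 57.4 CPM and then 6.31, 4.18, 6.17 and 8.28 CPM, a fall of 2.65 (SE 0.20). The endothelial receptor acvrl1 had 41.0, 48.8, 42.4 and 28.1 CPM and then 7.38, 6.40, 5.22 and 7.06 CPM, a fall of 2.52 (SE 0.18, adjusted p = 6.03e-19). None of these 3 receptors, named for their large falls, overlapped between the classes, which was not counted over all genes. bmpr2a fell by 2.47 (SE 0.19), tgfb1a by 2.33 (SE 0.19), bmp6 by 2.13 (SE 0.18) and smad5 by 1.91 (SE 0.15). The TGF-β and activin Smad smad2 had 32.2, 35.5, 44.8 and 57.4 CPM in nHSPCs and 42.1, 40.1, 58.1 and 72.0 CPM in haemogenic cells and did not pass the test. bmp3 also did not pass, with 40.3, 54.2, 32.9 and 29.5 CPM in nHSPCs.

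The Id genes split between the classes. id1 had 301, 383, 171 and 136 CPM in haemogenic cells and 56.0, 56.4, 39.3 and 35.6 CPM in nHSPCs, and it fell by 2.26 (SE 0.30, adjusted p = 4.68e-08). id4 fell by 2.01 (SE 0.29). id2a, whose mammalian relative acts in lymphoid cells, had 10.4, 18.1, 6.05 and 13.4 CPM in haemogenic cells and 87.1, 75.9, 87.7 and 89.6 CPM in nHSPCs. It rose by 2.95 ± 0.28 (adjusted p = 1.69e-12). id3 had 58.2, 70.0, 38.7 and 36.6 CPM and then 127, 118, 133 and 110 CPM, a rise of 1.38 ± 0.20 (adjusted p = 8.89e-08), and its level in neutrophils was higher still, at 284 ± 31.9 CPM (SD, n = 4). In all 4 genes, which were the Id genes called, the values of the classes did not overlap. Such overlap was not counted over all genes.

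**Figure D3:**
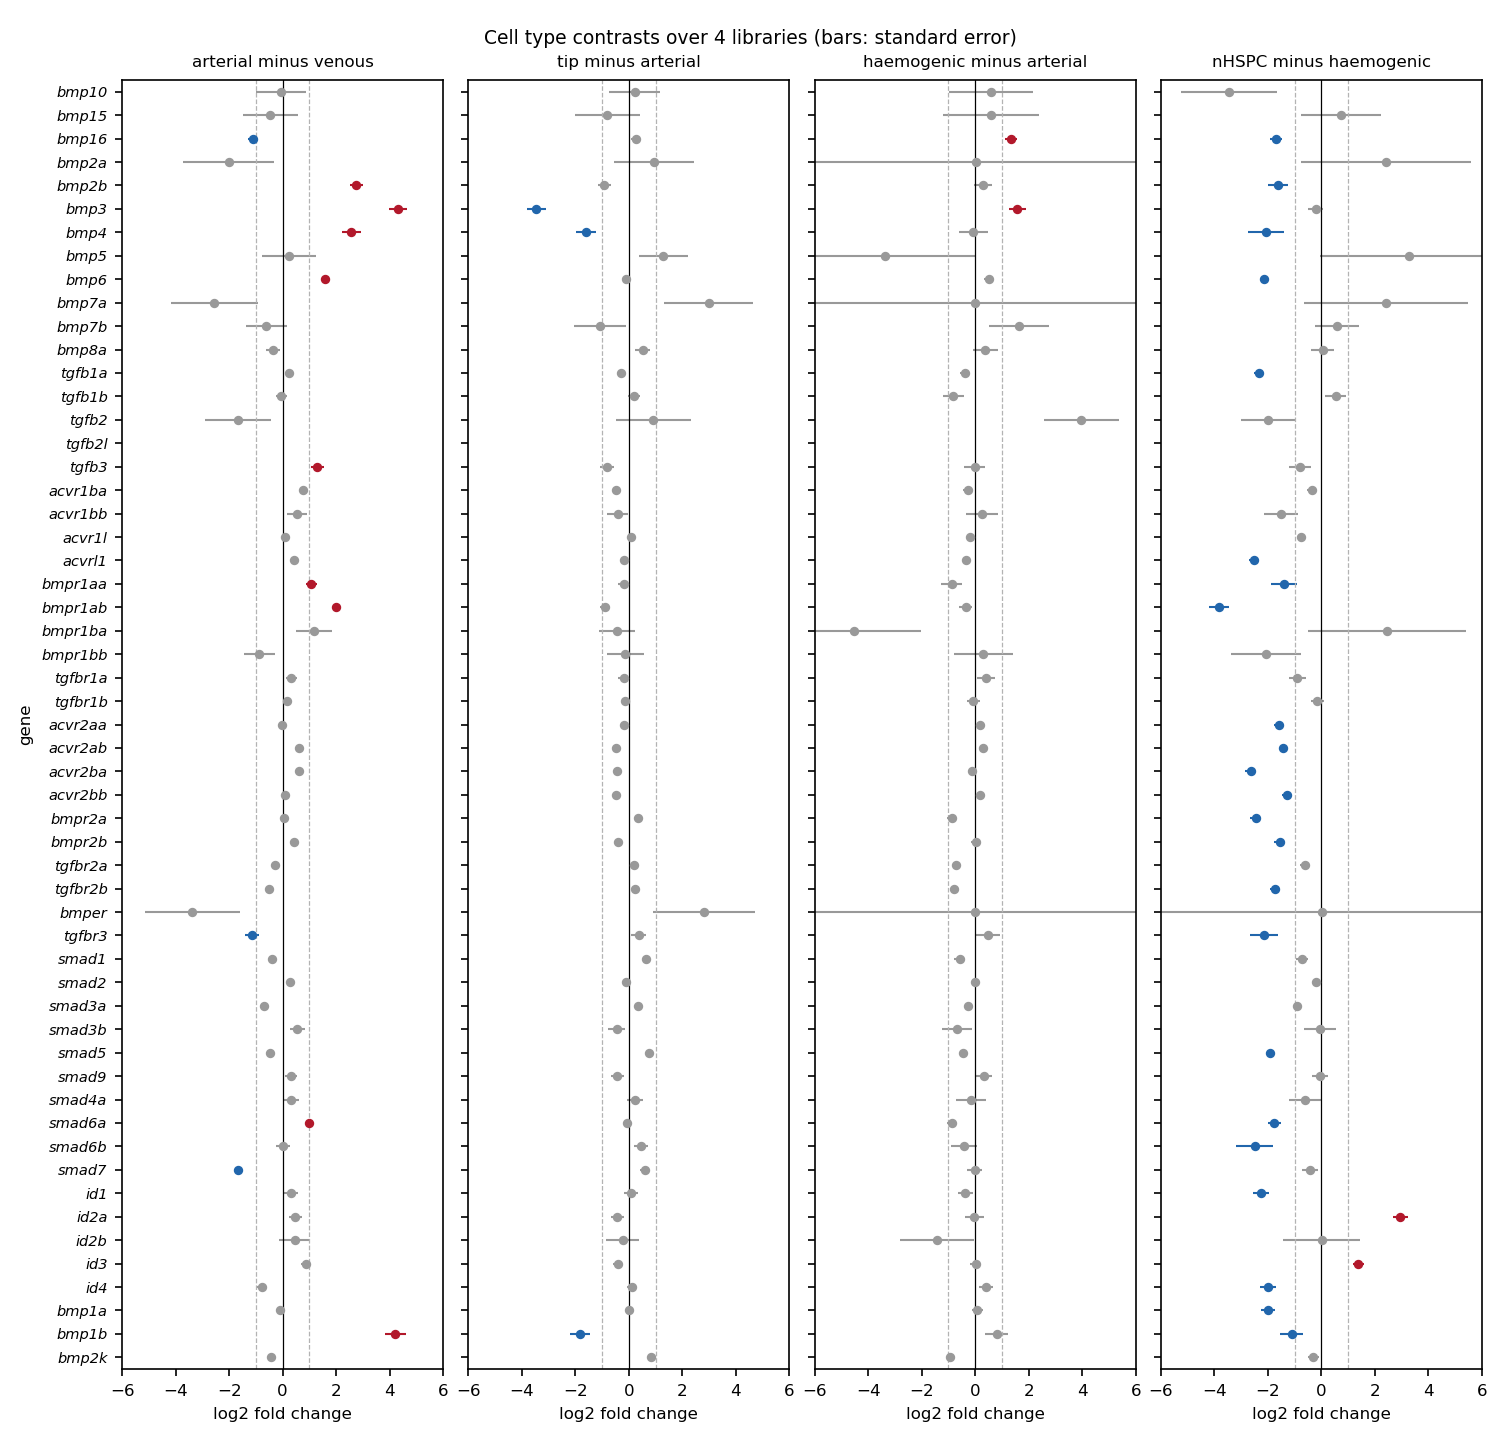
Log2 fold change (horizontal axes) of the tested genes in 4 cell type contrasts over 4 libraries, with bars for the standard error. Bars that run past the axis belong to genes with few UMIs. Red and blue points are called higher and lower, dashed lines mark 2-fold, and blue points cover 7 of 8 type II receptors in nHSPC minus haemogenic but 0 of them in the other 3 panels.

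Mesenchyme had higher levels of 7 ligands, including bmp5, bmp4 and tgfb2, and of 4 Id genes than ECs, and lower levels of bmp16, tgfb1b and id4. Compared with the mean of arterial, venous and other endothelial cells, 22 of 54 genes (40.7%) were higher in mesenchyme, beside 15.8% of all genes, and 10 (18.5%) were lower, beside 10.9%. The median log2 difference was 0.44 for the 54 genes and 0.06 for all genes. The genes that rose were 7 of 16 ligands tested, 5 of 10 type I receptors, both extracellular modulators, smad9, smad6b, smad7, 4 of 5 Id genes and bmp1a. bmp5 rose by 8.63 ± 0.26 (adjusted p = 2.19e-36). bmpr1ba, a BMP type I receptor of cartilage and mesenchyme, had 25.9, 23.9, 23.7 and 28.7 CPM in mesenchyme and 0.144 to 0.449 CPM in ECs and rose by 7.02 ± 0.27. In notochord the mean of bmpr1ba was higher than in mesenchyme, at 62.5 ± 16.2 CPM (SD over the 4 libraries). bmp2a had 2.08, 2.44, 0.718 and 1.85 CPM in mesenchyme beside 0.0181 to 0.0780 CPM in ECs and rose by 5.77 ± 0.88, with 12 UMIs in mesenchyme and 12 in all ECs. The mean of bmp2a was far higher in epidermis, at 35.2 ± 15.5 CPM (SD over the 4 libraries). id1 rose by 3.17 ± 0.20, from a level in mesenchyme of 2421, 2325, 2304 and 1985 CPM.

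Lower in mesenchyme were 3 type II receptors (bmpr2a, tgfbr2a and tgfbr2b), acvrl1, smad5, bmp16, tgfb1b, id4, bmp1b and bmp2k. id4 had 0.519 to 0.977 CPM in mesenchyme and 14.4 to 19.6 CPM in ECs and fell by 3.83 (SE 0.43, adjusted p = 7.67e-12). For the other TGF-β1 gene, tgfb1b, 1 UMI was counted in the mesenchyme of the 4 libraries. Its summed level in arterial, venous and other endothelial cells was 45.7 times that in mesenchyme, with a 95% counting interval of 8.19 to 1806. bmp1b had 0 UMIs in mesenchyme, which allows up to 0.465 CPM (3 counts over the 4 libraries together), and was at least 1.68-fold higher in the same endothelial cells. Its call was lost without the miR-128 mutant (adjusted p = 0.0653).

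Genes of the pathway outside the 55 were followed in 5 lists. Of secreted antagonists, 10 of 14 tested were higher and 0 lower in mesenchyme, with a median of 3.92 on the log2 scale beside 0.06 for all genes, of which 15.8% were higher and 10.9% lower. At the head stood nog1, a noggin that traps BMPs outside the cell, which rose by 9.37 ± 0.24. Of target genes of Smad signalling, 10 of 13 were higher and 1 lower in mesenchyme, with msx2b, a homeobox gene, at 8.50 ± 0.21 and tagln, a smooth muscle gene, at 8.41 ± 0.37. Of membrane and matrix modulators, 7 of 15 were higher and 2 lower there. The other lists had fewer, with 3 higher and 3 lower of 9 other ligands and 2 higher and 1 lower of 17 cytoplasmic and nuclear modulators. In arterial against venous cells the targets divided into 3 higher and 5 lower of 13, beside 7.33% and 6.68% of all genes, among them atoh8, a transcription factor downstream of acvrl1 in mammals, which fell by 3.80 (SE 0.27), and msx2b, which fell by 2.89 (SE 0.85). The ligand gene amh fell by 4.11 (SE 0.34), while of the 9 other ligands tested, amh among them, 2 were higher and 1 lower. Of cytoplasmic and nuclear modulators, 0 of 17 were higher and 3 lower. Of membrane and matrix modulators, 4 of 15 were higher and 2 lower, and of secreted antagonists, 1 of 14 was higher and 0 lower. From haemogenic cells to nHSPCs, 7 of 15 membrane and matrix modulators, 5 of 13 targets, 5 of 17 cytoplasmic and nuclear modulators, 4 of 14 secreted antagonists and 2 of 9 other ligands fell, beside 13.2% of all genes, with gdf6a, a BMP ligand, down by 3.05 (SE 0.19) and edn1 (endothelin) down by 2.86 (SE 0.35). In the same lists 1 gene rose, nrros, a modulator of latent TGF-β, by 1.81 ± 0.18, while 10.5% of all genes rose. From arterial to haemogenic cells, 0 genes of each list rose, beside 1.35% of all genes. Falls there were 2 of 13 targets, 1 of 15 membrane and matrix and 1 of 17 cytoplasmic and nuclear modulators, beside 1.01%. From arterial to tip cells, 1 of 13 targets rose and 2 fell, beside 2.13% and 2.58% of all genes.

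The 4 libraries were next compared over all ECs. Ratios of CPM were divided by the median ratio of the genes with at least 50 UMIs in both libraries together, since plain ratios were shifted by 0.15 (csnk1a1 g3UTR) and 0.31 (jag1b g3UTR) on the log2 scale against WT. A gene was called at 1.5-fold. Intervals are 95% exact binomial intervals that cover counting error only, not variation between embryos, preparations or runs.

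In the miR-128 mutant, bmp6 had fewer and bmpr1aa and bmp2b more UMIs after scaling than WT. Of 47 genes tested, 3 (6.38%) were called higher and 3 (6.38%) lower, beside 6.86% and 7.06% of all genes, so the shares were near the background, and the median ratio was 1.03. bmp6 had 1319 UMIs in the mutant and 2924 in WT, a ratio of 0.659 (0.617 to 0.703). Within cell types the ratio of bmp6 was 0.760 (0.624 to 0.921) in arterial, 0.627 (0.565 to 0.696) in venous, 0.722 (0.645 to 0.806) in tip, 0.729 (0.527 to 0.999) in haemogenic and 0.610 (0.487 to 0.761) in other endothelial cells. It was thus below 1 in each endothelial class, and also in nHSPCs at 0.747 (0.564 to 0.985), but at 1.02 (0.518 to 1.93) in epidermis. bmpr1bb, a BMP type I receptor, had 24 and 81 UMIs, a ratio of 0.433 (0.262 to 0.689), and bmp5 had 16 and 37 UMIs with an interval that included 1. bmpr1aa had 350 and 319 UMIs and a ratio of 1.60 (1.37 to 1.87), bmp1b had 105 and 97 UMIs and a ratio of 1.58 (1.19 to 2.10), and bmp2b had 279 and 261 UMIs and a ratio of 1.56 (1.31 to 1.85).

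**Figure D4:**
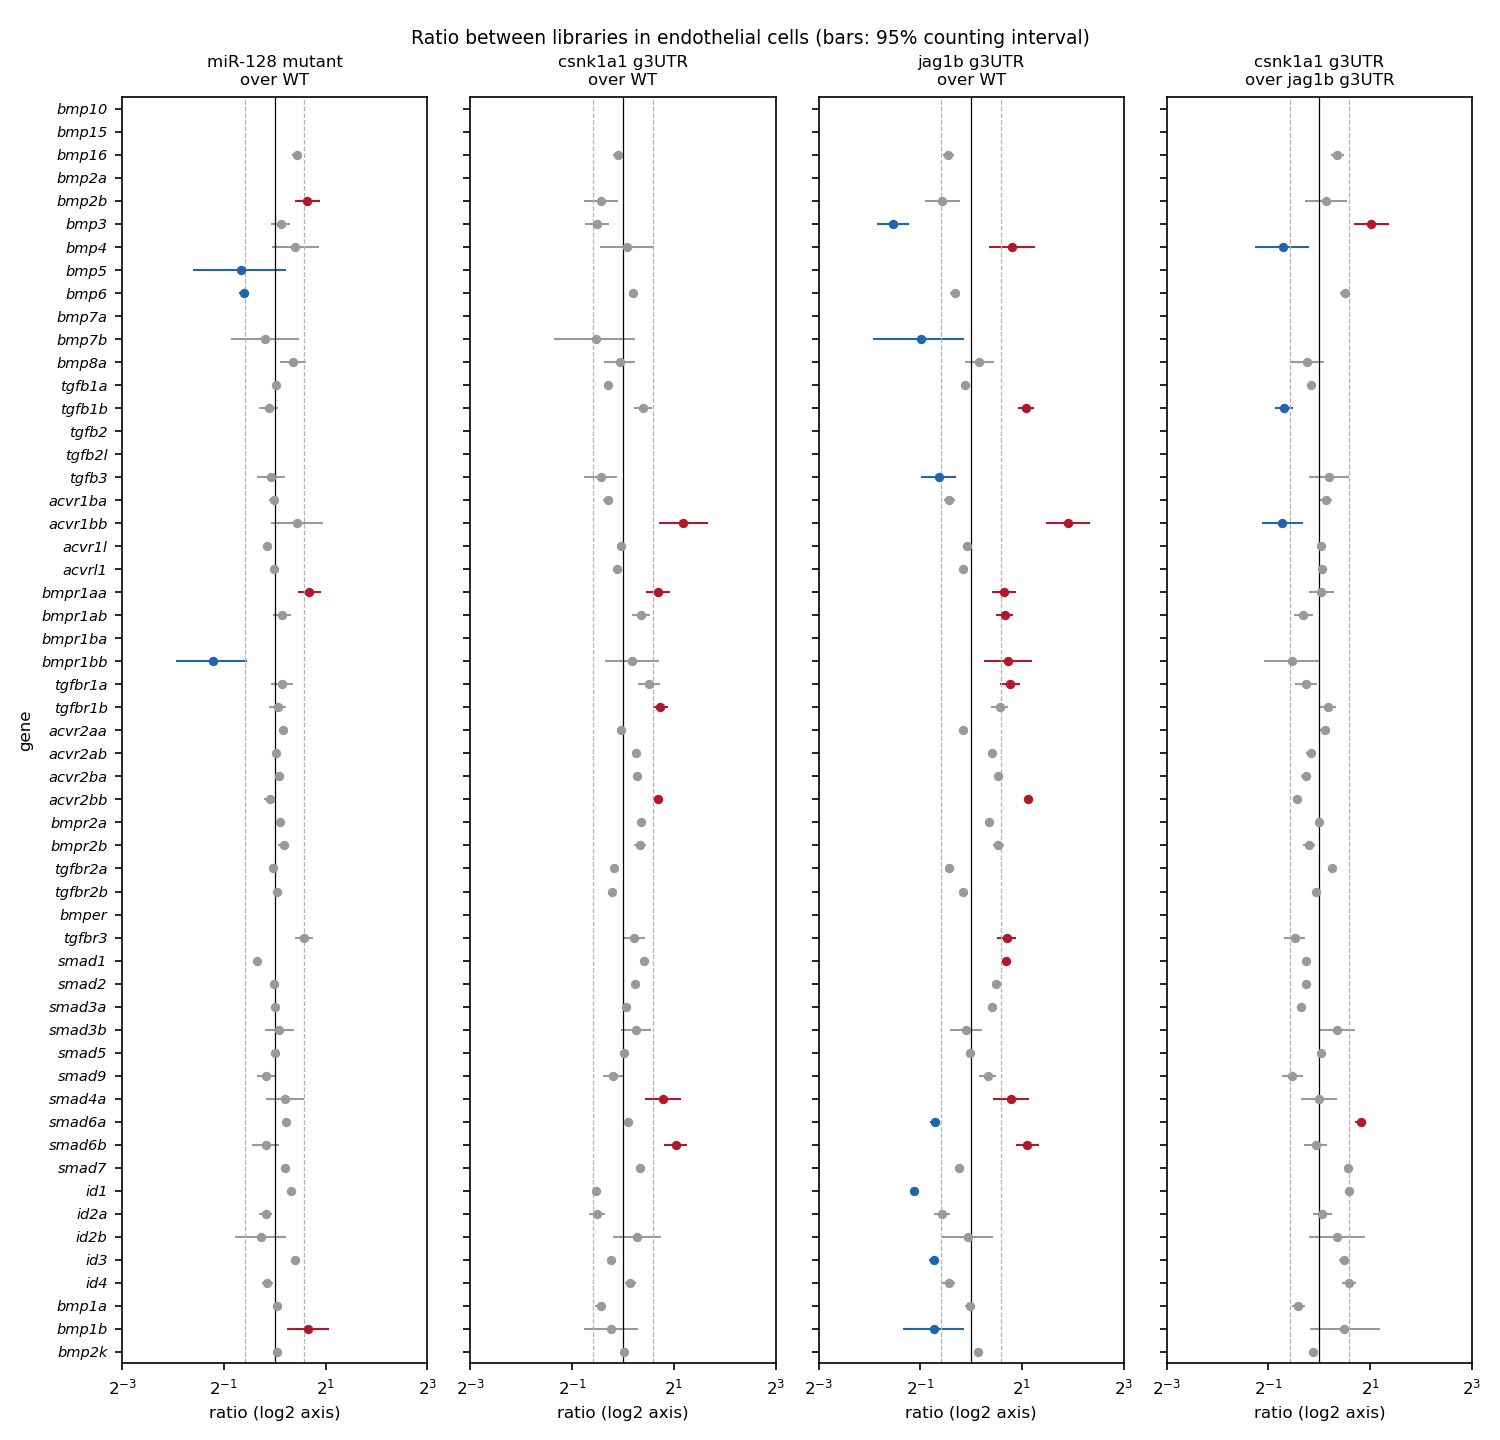
Ratio between libraries in ECs (horizontal axes, log2 scale) of the genes with at least 50 UMIs, with 95% counting intervals; dashed lines mark 1.5-fold and red and blue points are called higher and lower. jag1b g3UTR over WT has the most coloured points, 12 higher and 7 lower, with acvr1bb at 3.75 and bmp3 at 0.346.

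In csnk1a1 g3UTR, 6 of 46 genes (13.0%) were called higher than in WT, beside 10.4% of all genes, and 0 lower, beside 7.87%. The median ratio was 1.07. acvr1bb, an activin type I receptor, had 84 and 68 UMIs and a ratio of 2.28 (1.63 to 3.18). The inhibitory Smad smad6b had 333 and 299 UMIs and a ratio of 2.05 (1.75 to 2.41), smad4a had 132 and 140 UMIs and a ratio of 1.74 (1.36 to 2.22), and tgfbr1b, a TGF-β type I receptor, had 651 and 719 UMIs and a ratio of 1.67 (1.5 to 1.86). The other called genes were acvr2bb and bmpr1aa, both at 1.61. Among the Id genes, id1 lay just inside the limit at 0.692 (0.678 to 0.705).

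The jag1b g3UTR library differed most from WT, for the 55 genes as for all genes. Of 46 genes tested, 12 (26.1%) were called higher, beside 19.6% of all genes, and 7 (15.2%) lower, beside 17.5%. The median ratio was 0.985. With plain CPM ratios the counts were 20 higher and 3 lower, a shift of the balance of directions with the scaling. The median plain ratio of all genes tested was 1.24, and the shares of all genes called by plain ratios were not counted. The plain counts are therefore not read as a trait of the 55 genes. Among those called higher were 5 of 9 type I receptors tested (acvr1bb, bmpr1aa, bmpr1ab, bmpr1bb and tgfbr1a). acvr1bb had 143 and 68 UMIs and a ratio of 3.75 (2.79 to 5.08), and the type II receptor acvr2bb had 2397 and 1964 UMIs and a ratio of 2.17 (2.05 to 2.31). smad6b had 361 and 299 UMIs and a ratio of 2.15 (1.84 to 2.51), and tgfb1b had 714 and 600 UMIs and a ratio of 2.12 (1.90 to 2.37). The other genes called higher, at 1.56 to 1.74, were bmp4, smad4a, tgfbr3, smad1 and 4 of the type I receptors.

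Lower than in WT were id1 and id3, the Id genes with most UMIs in ECs, 3 ligands, smad6a and bmp1b. id1 had 9761 UMIs in jag1b g3UTR and 37799 in WT, a ratio of 0.460 (0.450 to 0.470), and 0.569 as a plain CPM ratio. Within cell types the ratio of id1 was 0.548 (0.498 to 0.603) in arterial, 0.440 (0.426 to 0.453) in venous, 0.513 (0.488 to 0.539) in tip, 0.422 (0.341 to 0.518) in haemogenic and 0.509 (0.484 to 0.536) in other endothelial cells. It was below 1 in each of these classes, and also outside the endothelium at 0.706 (0.670 to 0.743) in mesenchyme, 0.699 (0.656 to 0.745) in neural cells and 0.568 (0.459 to 0.697) in nHSPCs. Neutrophils, with 74 UMIs against 12, and neural crest, with 86 against 93, went the other way, at 6.66 (3.59 to 13.5) and 3.5 (2.58 to 4.75). Neural crest held only 9 cells in jag1b g3UTR and 12 in WT, and the counting interval leaves out variation between cells. id3 had 1282 and 3776 UMIs and a ratio of 0.605 (0.567 to 0.644), or 0.748 as a plain CPM ratio. smad6a, induced by BMP signalling like the Id genes, had 1088 and 3185 UMIs and a ratio of 0.608 (0.567 to 0.652), or 0.753 as a plain CPM ratio. Its duplicate smad6b lay on the other side of 1.

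The ligand farthest below WT in jag1b g3UTR was bmp3, with 104 and 536 UMIs and a ratio of 0.346 (0.277 to 0.427). By cell type, bmp3 had 9 UMIs in arterial cells of jag1b g3UTR and 148 in those of WT, a ratio of 0.152 (0.0682 to 0.297), while the ratio was 0.503 (0.315 to 0.775) in haemogenic cells and 0.653 (0.515 to 0.822) in nHSPCs. The arterial class was thus farther from 1 than both of these, although the difference between classes was not tested. bmp7b had 15 and 53 UMIs and a ratio of 0.504 (0.264 to 0.908), which turned to 1.08 over all kept cells. tgfb3 lay at 0.644 (0.508 to 0.811). With plain CPM ratios, id3, smad6a, tgfb3 (0.797) and bmp1b (0.750) were no longer called, while bmp3, id1 and bmp7b were.

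The g3UTR libraries share a Cell Ranger version and were therefore also set against each other. Of 45 genes tested, csnk1a1 g3UTR was called higher in 2 (4.44%), beside 7.70% of all genes, and lower in 3 (6.67%), beside 10.5%, with a median ratio of 0.999. With plain CPM ratios the counts were 2 higher and 7 lower, while the median plain ratio of all genes tested was 0.899. smad6a had 1863 UMIs in csnk1a1 g3UTR and 1088 in jag1b g3UTR, a ratio of 1.76 (1.63 to 1.90), and bmp3 had 205 and 104 UMIs and a ratio of 2.03 (1.59 to 2.59). Lower were acvr1bb at 0.605 (0.456 to 0.797), bmp4 at 0.605 (0.418 to 0.869) and tgfb1b at 0.620 (0.549 to 0.70). id1 had a ratio of 1.5 (1.46 to 1.54), just under the limit before rounding. By cell type, id1 was highest in tip cells, at 2.11 (1.99 to 2.22), and was 1.29 (1.25 to 1.34) in venous cells.

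**Figure D5:**
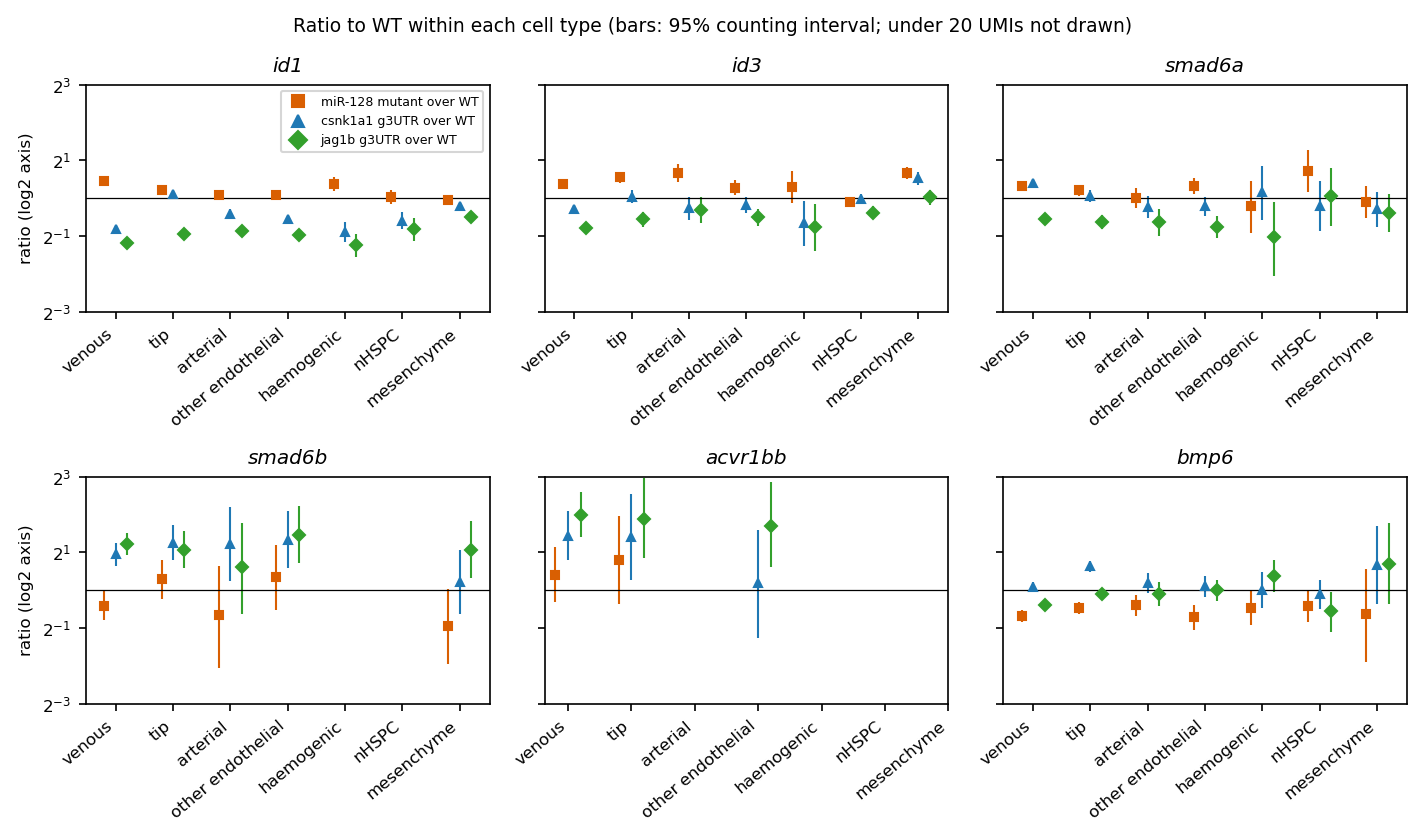
Ratio to WT (vertical axes, log2 scale) of 6 genes for the other 3 libraries, with 95% counting intervals, in venous, tip, arterial, other endothelial and haemogenic cells, nHSPCs and mesenchyme (horizontal axes), where a gene had at least 20 UMIs in both libraries together. Other cell types are not drawn. id1 in jag1b g3UTR is below 1 in these cell types, with 0.440 in venous cells, and bmp6 in the miR-128 mutant is below 1 in them too, although its interval in mesenchyme includes 1.

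Among the other genes of the pathway, tmem100a, an acvrl1 target in mammals, had ratios to WT of 0.368 (0.264 to 0.504) and 0.416 (0.305 to 0.558) in csnk1a1 and jag1b g3UTR. There atoh8, also downstream of acvrl1 in mammals, lay on the other side of 1, at 1.20 (1.11 to 1.29) and 1.12 (1.04 to 1.21). In the miR-128 mutant, tmem100a was at 0.706 (0.560 to 0.884) and atoh8 at 1.33 (1.24 to 1.42). Of 12 target genes of Smad signalling tested, 3 were called lower and 0 higher in csnk1a1 g3UTR, with a median ratio of 0.847. In jag1b g3UTR, 4 of 12 were lower and 0 higher, with a median of 0.927. In the miR-128 mutant, 0 of 12 were lower and 1 higher, with a median of 0.980. Of secreted antagonists, 2 of 12 were called lower and 1 higher in the miR-128 mutant, 4 and 1 of 11 for csnk1a1 g3UTR, and 5 and 0 of 11 for jag1b g3UTR. Since 10 of 14 antagonists were higher in mesenchyme than in ECs, free RNA may add to their endothelial counts, which was not tested. In the same order, 0, 1 and 1 of 5 other ligands were lower and 0 higher. Of 13 membrane and matrix modulators, 0, 1 and 1 were lower and 0, 0 and 3 higher. Of 17 cytoplasmic and nuclear modulators, 0, 0 and 1 were lower and 0, 2 and 2 higher. Over all genes, 7.06%, 7.87% and 17.5% were called lower and 6.86%, 10.4% and 19.6% higher in these comparisons. fstb, a follistatin that binds activins, had ratios of 0.340 (0.222 to 0.506), 0.485 (0.324 to 0.708) and 0.495 (0.334 to 0.718). These comparisons share the WT library.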

How the data were processed

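Filtered gene by cell matrices of raw UMI counts were deposited by the authors, who ran Cell Ranger (5.0.0 for WT and the miR-128 mutant, 6.0.1 for both g3UTR libraries, per the file headers, while the submitters' processing notes name 5.0.0 for all) with an annotation of corrected 3′UTRs. No genome build was given in the sources used here, so no coordinates are printed. Cells with at least 200 genes, at most 35000 UMIs (the guard against doublets; no doublet caller was run) and at most 20% mitochondrial UMIs were kept, 9090 to 12270 per library of 69980329 to 144258953 UMIs. A compartment needed 3 of its 8 markers and 2 more than the next; 3.41% to 8.27% of cells stayed ungated. UMIs were summed per library and class and tested with edgeR 4.0.16 (R 4.3.3; DESeq2 1.42.0 as an alternative) in classes with at least 10 cells in each library. TMM scaling factors came from genes with at least 5000 UMIs, and the test was run on simulated data first. Ratios used Python 3.11.15 and scipy 1.17.1. The genes, lists and tests were chosen with earlier results of these data known. Values, ranges or sums over the 4 libraries are given for the 2 genes with most endothelial UMIs in each role. The same holds, per cell type contrast, for the 3 largest called changes each way. Per library comparison, the ratio is given for at most the 4 called genes farthest from 1 each way whose interval excludes 1. Of the pathway lists, the 3 farthest called could be named. Other genes were named as examples after their values were seen. The values of 1 gene of the pathway lists are not reported here.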

Additional observations from a re-analysis of the deposited data

Results flagged for a closer look

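Among the 25 genes called between nHSPCs and haemogenic cells, 23 moved one way in all 4 libraries. bmp1b was lower in nHSPCs in 3 libraries, but in the miR-128 mutant its log2 ratio of nHSPC to haemogenic CPM was 0.19, with 5.75 against 4.72 CPM. bmpr1aa was lower in 3 libraries, but in jag1b g3UTR its log2 ratio was 0.51, with 2.45 against 1.22 CPM. In neither case was the difference between libraries tested.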

How the results depend on the processing

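No paired analysis was possible because each group had a single library, and library was already a block in the cell type fits. Leaving out each library in turn gave 2 to 5 genes lower in tip cells than in arterial cells. The haemogenic count of lower genes, 0, became 4 with 1 more marker in every gate, 7 with gates at 3000 UMIs per cell and 1 with at most 20000 UMIs per cell. The shares of all genes called under these settings were not counted. In settings chosen after seeing the data, WT and the miR-128 mutant alone gave 5 lower in tip cells, and both g3UTR libraries alone gave 1 lower in tip cells, 1 higher in haemogenic cells and 1 lower there. The other cell type counts stayed within 1.5 times their value under every setting run.

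Counts between libraries moved more, and the shares of all genes called under these settings were not counted. For the miR-128 mutant over WT, genes called lower numbered 0 in arterial, tip and haemogenic cells only, 1 with 1 more marker, 1 with at most 20000 UMIs and 5 with genes of at least 1 UMI. For csnk1a1 g3UTR over WT they numbered 5 with the mean over cells, 2 over all kept cells, 1 in arterial, tip and haemogenic cells, 1 with gates at 3000 UMIs, 2 with at most 20000 UMIs and 3 with at least 1 UMI. For jag1b g3UTR over WT, plain CPM gave 20 higher and 3 lower, arterial, tip and haemogenic cells 4 lower, and at least 1 UMI 15 lower. For csnk1a1 g3UTR over jag1b g3UTR, genes called higher numbered 4 with classes weighted as in WT, 4 in arterial, tip and haemogenic cells, 5 with at most 20000 UMIs and 5 with at least 1 UMI, and lower 7 with plain CPM and 8 with at least 1 UMI. bmp7b in jag1b g3UTR over WT turned to 1.08 over all kept cells. The cause of these shifts was not tested. Genes with few UMIs, such as bmp7b, are limited by depth.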
